A study of Homo sapiens with 6 samples.

Results

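The genes described here encode 10 regulators of alternative splicing: RBFOX1, RBFOX2, RBFOX3, CELF2, CELF4, NOVA1, MBNL1, MBNL2, KHDRBS2 and KHDRBS3. They were chosen by name, as 10 of 20037 protein-coding genes on 24 chromosomes in the GRCh38 gene table, and their members in the data are the matrix-attached regions that overlapped each gene body by at least 1 bp. There were 61 such regions of 40106 in untreated H1 cells, 84 of 39368 in cells with the control hairpin and 68 of 36277 in cells with the hairpin against HNRNPU. These are 0.152%, 0.213% and 0.187% of the 3 lists.

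MAR-seq sequences the DNA that remains bound to the nuclear matrix after detergent extraction of nuclei and digestion with restriction enzymes. All 6 samples were H1 human pluripotent stem cells, an established line derived from an embryo, in 3 groups of 2 samples. The hPSC group was untreated, the shLUC group had an shRNA named for luciferase and served as the hairpin control, and the shHNRNPU group had an shRNA against HNRNPU, which encodes a nuclear RNA-binding protein of the matrix. Each group was represented by 1 list of 400 bp regions, so no value below has a replicate error, no test between groups was possible, and the intervals given are exact 95% intervals that cover counting error only. Read depth is unknown. The lists hold no expression values, so neither the cell type nor the knockdown could be checked against a marker, and the labels give no hairpin sequence or means of delivery.

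RBFOX, CELF, NOVA, MBNL and KHDRBS proteins bind short motifs in introns and exons of nuclear transcripts, and by binding upstream or downstream of an exon they promote its skipping or inclusion. Several of them are known for the splicing programs of neurons and muscle, and MBNL proteins are also known for opposing splicing patterns of pluripotent cells. Many of these genes are very long, with several alternative starts and large introns. Matrix-attached regions are thought to fasten chromatin loops to the nuclear matrix, and HNRNPU has been described as a protein that binds such DNA. Nothing in the lists measures the activity of the encoded proteins, so the values describe the genes as stretches of chromatin.

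The start sites of these genes carried some of the positions that recurred between lists and some that did not, so 7 promoter windows are shown first. Each runs from 250 bases before to 50 bases after a RefSeq start on GRCh38.p14, on the strand of the gene, and the capitals mark the bases covered by a region in every list named for that window. The RBFOX1 window at chr16:6019453-6019752 (+) is shown because all 3 lists had a region there, and its 97 covered bases include the start. The RBFOX1 window at chr16:6483136-6483435 (+) was covered whole in both hairpin lists and not in hPSC. NOVA1 at chr14:26597984-26598283 (-) had 264 bases covered in all 3 lists. The CELF2 window at chr10:10798475-10798774 (+) was covered over 104 bases in hPSC and shHNRNPU. A pair of neighbouring CELF2 windows, chr10:11017622-11017921 (+), covered over 169 bases in hPSC, and chr10:11018248-11018547 (+), covered whole in shLUC, show how close regions of different lists could lie without overlapping. KHDRBS2 at chr6:62286176-62286475 (-) was covered whole in hPSC only.
RBFOX1, all lists: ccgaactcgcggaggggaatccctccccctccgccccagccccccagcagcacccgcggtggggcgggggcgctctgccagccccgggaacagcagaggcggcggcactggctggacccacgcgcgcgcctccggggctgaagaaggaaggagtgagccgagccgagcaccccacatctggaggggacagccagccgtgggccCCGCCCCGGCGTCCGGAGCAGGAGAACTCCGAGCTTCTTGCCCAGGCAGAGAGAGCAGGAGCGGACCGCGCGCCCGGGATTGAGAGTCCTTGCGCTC
RBFOX1, shLUC and shHNRNPU: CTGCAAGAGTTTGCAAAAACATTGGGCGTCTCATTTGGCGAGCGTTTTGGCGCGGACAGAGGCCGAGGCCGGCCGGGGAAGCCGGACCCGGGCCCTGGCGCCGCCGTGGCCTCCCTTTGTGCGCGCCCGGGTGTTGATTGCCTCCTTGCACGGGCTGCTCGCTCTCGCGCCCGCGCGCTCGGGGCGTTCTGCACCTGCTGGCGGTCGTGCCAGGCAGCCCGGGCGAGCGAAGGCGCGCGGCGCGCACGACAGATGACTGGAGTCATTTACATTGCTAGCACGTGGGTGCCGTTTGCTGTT
NOVA1, all lists: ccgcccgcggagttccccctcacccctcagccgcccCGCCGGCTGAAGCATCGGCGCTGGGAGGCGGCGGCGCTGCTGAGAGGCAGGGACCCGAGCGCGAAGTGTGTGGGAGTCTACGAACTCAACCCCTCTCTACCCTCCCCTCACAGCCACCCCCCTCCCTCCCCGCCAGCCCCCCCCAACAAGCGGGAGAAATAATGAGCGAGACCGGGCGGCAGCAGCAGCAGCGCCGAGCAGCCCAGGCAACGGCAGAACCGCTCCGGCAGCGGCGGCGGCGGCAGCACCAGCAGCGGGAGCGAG
CELF2, hPSC and shHNRNPU: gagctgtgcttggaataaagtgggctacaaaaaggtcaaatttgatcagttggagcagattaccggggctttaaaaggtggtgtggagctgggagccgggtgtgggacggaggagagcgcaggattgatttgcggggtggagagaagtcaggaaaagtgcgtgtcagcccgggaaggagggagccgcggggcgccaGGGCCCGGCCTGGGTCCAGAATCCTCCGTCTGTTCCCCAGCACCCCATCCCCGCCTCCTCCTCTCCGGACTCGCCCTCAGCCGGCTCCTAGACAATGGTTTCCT
CELF2, hPSC: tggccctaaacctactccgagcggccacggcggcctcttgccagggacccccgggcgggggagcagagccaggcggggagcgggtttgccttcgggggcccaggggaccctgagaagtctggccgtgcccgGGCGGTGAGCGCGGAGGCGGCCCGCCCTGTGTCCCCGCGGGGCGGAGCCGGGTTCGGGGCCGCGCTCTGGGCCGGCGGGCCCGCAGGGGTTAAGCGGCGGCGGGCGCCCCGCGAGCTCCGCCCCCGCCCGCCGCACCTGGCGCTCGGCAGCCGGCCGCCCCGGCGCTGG
CELF2, shLUC: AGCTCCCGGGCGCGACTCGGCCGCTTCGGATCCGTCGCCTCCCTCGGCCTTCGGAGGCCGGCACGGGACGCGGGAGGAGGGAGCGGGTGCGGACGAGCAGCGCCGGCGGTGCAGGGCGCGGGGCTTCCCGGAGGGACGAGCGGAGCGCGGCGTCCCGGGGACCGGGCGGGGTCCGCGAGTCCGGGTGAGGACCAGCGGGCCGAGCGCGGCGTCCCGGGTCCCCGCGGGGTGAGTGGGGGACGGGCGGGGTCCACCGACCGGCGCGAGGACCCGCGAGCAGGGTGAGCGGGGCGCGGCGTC
KHDRBS2, hPSC: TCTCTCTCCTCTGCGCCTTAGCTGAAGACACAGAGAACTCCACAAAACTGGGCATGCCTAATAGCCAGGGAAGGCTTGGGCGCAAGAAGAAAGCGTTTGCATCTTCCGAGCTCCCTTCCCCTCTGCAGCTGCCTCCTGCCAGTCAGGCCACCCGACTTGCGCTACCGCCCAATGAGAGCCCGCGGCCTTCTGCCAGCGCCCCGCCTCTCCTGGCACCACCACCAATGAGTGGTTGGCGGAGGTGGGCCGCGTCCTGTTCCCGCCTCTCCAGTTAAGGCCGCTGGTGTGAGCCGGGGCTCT

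The 3 RBFOX genes encode closely related proteins with a single RNA recognition motif. RBFOX1 is a neuronal and muscle splicing factor with one of the longest genes of the genome, at chr16:5239721-7713340 (2473620 bp, + strand). It held 22 regions in hPSC, 24 in shLUC and 24 in shHNRNPU, the most of any gene described. Per Mb of gene this was 8.89 in hPSC (interval 5.57 to 13.5), 9.70 in shLUC (6.22 to 14.4) and 9.70 in shHNRNPU. Its levels in the 3 lists lay within counting error of each other and close to the median of the 69 protein-coding genes of 1 Mb and over, which were 7.29, 8.66 and 8.67 regions per Mb in the same order. Of the 47 distinct positions in RBFOX1, 17 were present in both hairpin lists but not hPSC, 18 in hPSC only, 4 in shLUC only and 4 in shHNRNPU only. Those in hPSC only were 38.3%, against 40.1% of positions over the genome. In all 3 lists there were 2 (4.26%, against 4.75%), at chr16:6019515-6020055, which reaches the start window printed above, and at chr16:6639275-6639915.

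RBFOX2 is the family member known for splicing in epithelial and pluripotent cells, and its gene lies at chr22:35738736-36028824 (290089 bp, with no strand in the table used). It held 2 regions in hPSC, 6 in shLUC and 6 in shHNRNPU, which is 6.89, 20.7 and 20.7 per Mb. The hPSC value was below that of both hairpin lists, but 2 of 8 regions in hPSC and shLUC together is 25.0% with an interval of 3.19% to 65.1%, which includes an equal division. All 6 shLUC regions were in shHNRNPU (interval 54.1% to 100%, which includes the 70.8% of all shLUC regions). These 6 regions had the same coordinates in both lists, starting at 35753784, 35956255, 35961489, 35974427, 35981343 and 36017198. Of these, 5 lay in the upper end of the gene and the remaining region stood 202 kb apart, a gap that spanned 69.7% of the gene. The region at chr22:35961489-35961888 had the same coordinates in all 3 lists. It was 1 of 2 positions with identical coordinates in every list among the genes described, the other being in CELF2.

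RBFOX3 encodes the neuronal nuclear antigen NeuN, widely used to mark mature neurons, and lies at chr17:79089345-79665571 (576227 bp, - strand). It held 7 regions in hPSC, 19 in shLUC and 15 in shHNRNPU, with densities of 12.1 (4.88 to 25.0), 33.0 (19.9 to 51.5) and 26.0 (14.6 to 42.9) per Mb. The untreated list stood lowest. The 7 hPSC regions were 26.9% of 26 with shLUC (interval 11.6% to 47.8%), which does not include an equal division. No other gene described had such an interval in either comparison with shLUC, and the intervals were not adjusted for the number of genes. Of all genes judged, 26.4% were lower in hPSC than in shLUC by at least 1.5-fold. The 15 shHNRNPU regions were 44.1% of 34 with shLUC (27.2% to 62.1%), which includes an equal division. This interval treats the lists as independent, although 13 regions were in both. Among the 704 protein-coding genes of 300 kb to 1 Mb, RBFOX3 stood at percentile 48.5 in hPSC, 98.4 in shLUC and 95.8 in shHNRNPU. Its surroundings did not follow the gene, since the 500 kb on each side together held 24, 26 and 24 regions.

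No hPSC region overlapped a region of either hairpin list (0 of 7, interval 0% to 41.0%), where over the whole hPSC list 13.97% overlapped shLUC and 15.6% shHNRNPU, both inside that interval. Of the shLUC regions, 13 of 19 were present in shHNRNPU with the same coordinates (68.4%, interval 43.4% to 87.4%, against 70.8% of all shLUC regions). The 7 hPSC regions lay between 6.73 and 64.6 kb from the nearest shLUC region, measured from start to start. Of the hPSC regions, 3 lay in the first of 5 equal parts of the gene counted from its start, where shLUC had 0 and shHNRNPU 2. The second part ran the other way, with 0 regions in hPSC, 7 in shLUC and 5 in shHNRNPU, and the last part held 1, 5 and 5. None of the 12 RefSeq start windows of RBFOX3 held a region in any list. No window lay at the first base of the gene body, where the hPSC region at 79665235 overlapped the gene by 337 bases.

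**Figure D1:**
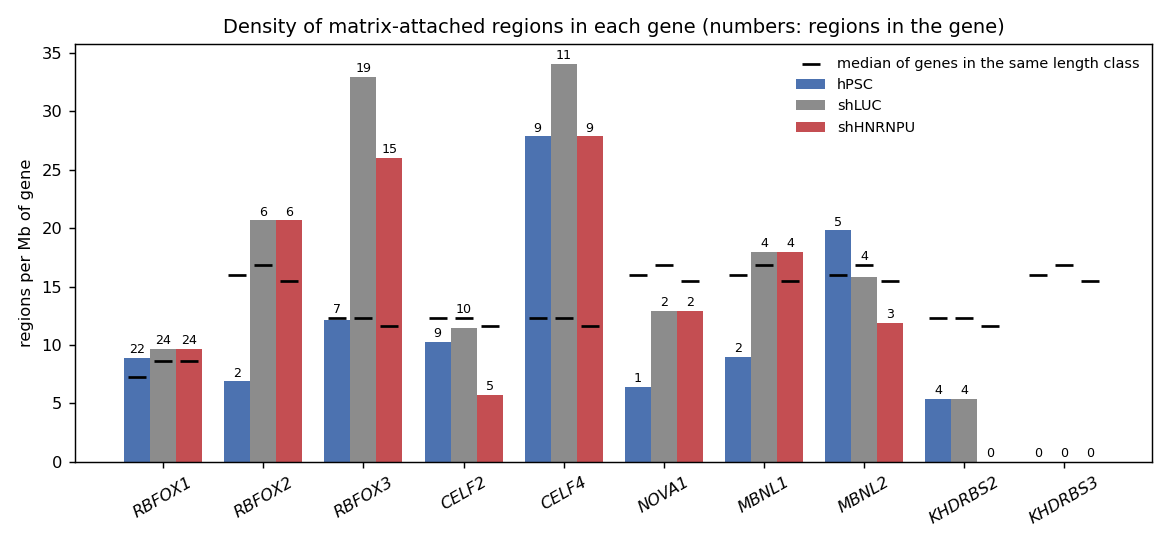
Regions per Mb of gene body for each of the 10 genes in the 3 lists (hPSC untreated, shLUC control hairpin, shHNRNPU knockdown), with the number of regions above each bar and the median of protein-coding genes of the same length class as a black line. There is 1 list per group, so no error bars are drawn. RBFOX3 and CELF4 reached 33.0 and 34.1 per Mb in shLUC, CELF2 and KHDRBS2 were lowest in shHNRNPU, and KHDRBS3 was at 0 throughout.

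CELF proteins regulate splicing, stability and translation of their target transcripts. CELF2, which is expressed in brain, heart and lymphocytes, lies at chr10:10462550-11336675 (874126 bp, + strand). It held 9 regions in hPSC, 10 in shLUC and 5 in shHNRNPU, or 10.3, 11.4 and 5.72 per Mb. The knockdown list had the fewest regions and both other lists were nearly equal. As a share of the 15 regions of shLUC and shHNRNPU together, the 5 were 33.3% (11.8% to 61.6%), which includes an equal division. This interval treats the lists as independent, although 4 regions were in both. The regions not shared were 6 in shLUC and 1 in shHNRNPU, against 11500 and 8409 over the whole lists. A difference beyond that of the lists was not tested. Of the 10 shLUC regions in CELF2, 4 were found in shHNRNPU (40.0%, interval 12.2% to 73.8%, which includes the 70.8% of all shLUC regions), at 10651061, 10831739, 11028415 and 11288123. The 6 absent from shHNRNPU started at 10908535, 11018245, 11129727, 11165803, 11244011 and 11294441, and 1 of them, at 11165803, was present in hPSC with the same coordinates.

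Of the 17 positions in CELF2, 1 was present in all 3 lists, at chr10:10651061-10651460 and with identical coordinates in each. Another, starting at 10798671, was shared by hPSC and shHNRNPU and missing from shLUC, and it covered the start window printed above. Near an alternative start in the middle of the gene the lists were divided. The hPSC region at 11017753 and the shLUC region at 11018245 had starts 0.492 kb apart and did not overlap, and the nearest shHNRNPU start lay 10.7 kb from the hPSC one. The first of 5 parts of CELF2 held 0 regions in every list. The median gap between neighbouring regions in the gene widened from 54.8 kb in hPSC and 76.4 kb in shLUC to 172 kb in shHNRNPU, where only 4 gaps were left.

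CELF4, which regulates excitatory transmission in neurons, lies at chr18:37242844-37565798 (322955 bp, - strand). It held 9 regions in hPSC, 11 in shLUC and 9 in shHNRNPU, or 27.9 (12.7 to 52.9), 34.1 (17.0 to 60.9) and 27.9 per Mb. It was dense in all lists, at percentiles 95.5, 98.8 and 96.5 of the genes of 300 kb to 1 Mb. The 500 kb on each side held only 12, 11 and 9 regions, so CELF4 was denser than its surroundings in every list. Of its 18 positions, 2 were present in all 3 lists, at chr18:37393948-37394405 and chr18:37524870-37525431. Of the 9 hPSC regions, 3 overlapped a region of shLUC and 3 a region of shHNRNPU. Each share has an interval of 7.49% to 70.1%, which includes the 13.97% and 15.6% of the whole hPSC list.

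NOVA1, a splicing factor of the brain named for its role as an autoantigen in a neurological syndrome, lies at chr14:26443090-26598033 (154944 bp, - strand). It held 1 region in hPSC, 2 in shLUC and 2 in shHNRNPU, or 6.45, 12.9 and 12.9 per Mb. The position at its start, chr14:26597848-26598364, was present in all 3 lists and is the one marked in the NOVA1 window above. The hairpin lists shared a region starting at 26506495, which hPSC did not have. With 1 or 2 regions per list, a difference in number was not detectable.

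MBNL proteins are the muscleblind factors sequestered by expanded repeats in myotonic dystrophy. MBNL1 at chr3:152243632-152465780 (222149 bp, + strand) held 2 regions in hPSC, 4 in shLUC and 4 in shHNRNPU, or 9.0, 18.0 and 18.0 per Mb. MBNL2 at chr13:97141834-97394120 (252287 bp, + strand) held 5, 4 and 3 regions, or 19.8, 15.9 and 11.9 per Mb. The paralogs thus ran in opposite order across the lists, with hPSC lowest in MBNL1 and highest in MBNL2, but by 2 or fewer regions in each case and within counting error. Each had a single position in all 3 lists. In MBNL1 it was chr3:152269032-152269549, which also lies in the antisense gene MBNL1-AS1. It overlapped a start window, of which 9 bases were covered in all 3 lists and more in hPSC. In MBNL2 it was chr13:97346612-97347382. All 3 shHNRNPU regions of MBNL2 were also in shLUC (interval 29.2% to 100%), as were 3 of 4 in MBNL1 (19.4% to 99.4%). Both intervals include the 76.8% of all shHNRNPU regions.

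KHDRBS2 and KHDRBS3 encode the Sam68-like proteins SLM1 and SLM2, which regulate splicing of neurexins in neurons. KHDRBS2 at chr6:61542670-62286225 (743556 bp, - strand) held 4 regions in hPSC, 4 in shLUC and 0 in shHNRNPU, or 5.38, 5.38 and 0 per Mb, with an upper limit of 4.96 per Mb for the latter. No fold is given against a count of 0. As a share of the 4 regions of shLUC and shHNRNPU together, 0 has an interval of 0% to 60.2%. This includes an equal division, so the difference was within counting error. Of 633 protein-coding genes with 4 regions in shLUC, 3 had none in shHNRNPU (0.474%), KHDRBS2 among them. With more than 4 regions, 0 genes had none. This comparison was chosen after the values of KHDRBS2 had been seen. The nearest shHNRNPU regions lay 219 kb below and 111 kb above the gene, at the same distances as in shLUC. The 4 hPSC regions started at 61865999, 61887526, 62222857 and 62286111 and the 4 shLUC regions at 61726790, 61843184, 62239438 and 62255726, and 0 of 4 overlapped between the lists (interval 0% to 60.2%, against 13.97% of all hPSC regions). The hPSC region at 62286111 covered the start window printed above. The gene lay in a stretch with few regions in any list, since the 500 kb on each side held 3, 2 and 2.

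KHDRBS3 at chr8:135457456-135656516 (199061 bp) held 0 regions in all 3 lists, which allows up to 18.5 per Mb in each. The nearest hPSC region lay 41 bp outside the lower end of the gene, whereas in both hairpin lists the nearest lay 93.6 kb below and 34.0 kb above it. Among 2583 genes of 100 to 300 kb, 69 (2.67%) likewise had no region in any list. The 500 kb on each side of KHDRBS3 held 9, 8 and 8 regions.

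**Figure D2:**
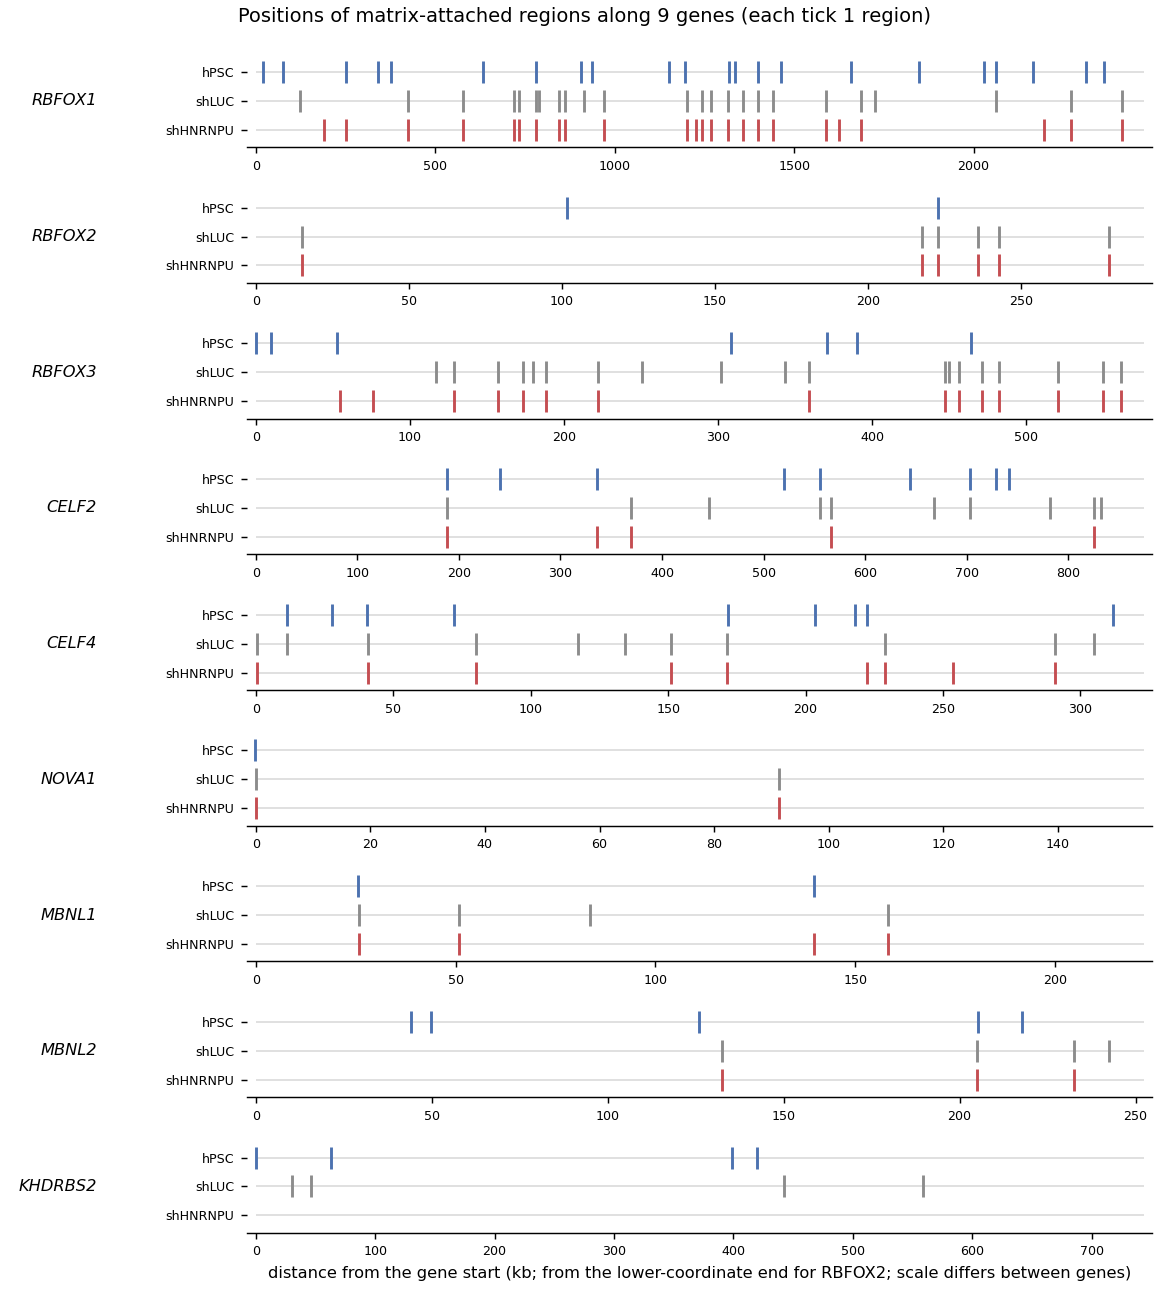
Positions of all regions along the 9 genes that had any, as distance from the gene start in kb (from the lower-coordinate end for RBFOX2), with 1 row for each list (hPSC untreated, shLUC control hairpin, shHNRNPU knockdown) and 1 tick for each region. The rows of shLUC and shHNRNPU coincide over much of RBFOX1, RBFOX2 and RBFOX3, the row of hPSC does not, and the shHNRNPU row of KHDRBS2 is empty.

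The knockdown was compared with its hairpin control across all genes. A gene was called where the number of regions differed by at least 1.5-fold between the lists, among genes with at least 10 regions in both lists together. By this rule 16.1% of 859 protein-coding genes were lower in shHNRNPU than in shLUC and 3.61% were higher. Of the genes described, 5 could be judged (RBFOX1, RBFOX2, RBFOX3, CELF2 and CELF4), of which CELF2 was lower and 0 were higher. The share of 1 in 5 is near the background. Their median log2 ratio was -0.29 against -0.15 over all genes judged. In counts, 5 of 10 genes were lower in shHNRNPU (RBFOX3, CELF2, CELF4, MBNL2 and KHDRBS2), 5 were equal and 0 were higher. The equal genes include KHDRBS3, with 0 in both lists. The shHNRNPU list was the shorter, with 36277 regions against 39368. No share over all genes is given for this count, so nothing particular to these genes can be read from it. Pooled over the genes, 68 against 84 regions is a log2 ratio of -0.30 with a counting interval of -0.79 to 0.17, and -0.19 after division by the length of each list. This interval treats the lists as independent, although 57 regions were in both, so it cannot decide whether the genes decreased as a group. The regions not shared were 27 in shLUC and 11 in shHNRNPU, against 11500 and 8409 over the whole lists. A decrease of the genes beyond that of the lists was not tested.

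The hPSC list was compared with shLUC as a measure of how far lists without a hairpin against HNRNPU differed. By the same rule 26.4% of 830 genes were lower in hPSC and 21.6% were higher. Of 4 genes described that could be judged, RBFOX3 was lower and 0 were higher, again near the background. In counts, 7 of 10 were lower in hPSC than in shLUC, 2 were equal (1 of them KHDRBS3, with 0 in both) and MBNL2 was higher. For this count too, no share over all genes is given. The pooled log2 ratio was -0.46 (counting interval -0.96 to 0.03). Both comparisons share the shLUC list.

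Pooled over their length, the genes held fewer regions per Mb than protein-coding genes. The median gene did not in the hairpin lists, but it did in every list when set against genes of 100 kb and over. Pooled densities were 9.99 in hPSC, 13.8 in shLUC and 11.1 in shHNRNPU, against 18.5, 18.3 and 17.1 over all protein-coding genes and 14.2, 14.9 and 13.7 over the 3356 genes of 100 kb and over. The median density over the 10 genes was 8.95 in hPSC, 14.4 in shLUC and 12.4 in shHNRNPU, against medians of 13.0, 8.32 and 7.25 over protein-coding genes and 14.7, 15.3 and 14.1 over those of 100 kb and over. Gene length differed between these sets, and RBFOX1 alone supplied much of the pooled length of 6.11 Mb. Set against genes of their own length class, 3 of the 10 were above the median in hPSC and 5 in each hairpin list. In regions per Mb the order of the shLUC levels ran from CELF4, RBFOX3, RBFOX2, MBNL1 and MBNL2 through NOVA1, CELF2 and RBFOX1 to KHDRBS2 and KHDRBS3, and no gene in it differed from its neighbours beyond the counting intervals. The interval of CELF4, 17.0 to 60.9, lay wholly above that of KHDRBS2 (1.47 to 13.8), while it overlapped that of KHDRBS3 (0 to 18.5), whose gene is shorter.

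Positions were shared mostly between the lists of the hairpin groups. Of the 84 shLUC regions in the genes, 57 were present in shHNRNPU (67.9%, interval 56.8% to 77.6%), against 70.8% of all shLUC regions. All 57 had the same coordinates, but so did 27865 of the 27868 shared regions of the whole shLUC list. Between hPSC and shLUC this held for 1735 of 5604 shared hPSC regions. Identical coordinates are therefore not particular to these genes, and why the hairpin lists match to the base was not tested. The 27 absent from shHNRNPU were spread over 7 genes, with 6 each in RBFOX3 and CELF2, 5 in RBFOX1, 4 each in CELF4 and KHDRBS2, and 1 each in MBNL1 and MBNL2. In the other direction 57 of 68 shHNRNPU regions were in shLUC (83.8%, 72.9% to 91.6%), against 76.8% of the whole list. Of 61 hPSC regions, 12 were in shLUC (19.7%, 10.6% to 31.8%, against 13.97% of the whole list) and 13 in shHNRNPU (21.3%, against 15.6%). These intervals, pooled over the genes, include the shares of the whole lists in each case.

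Joined across lists, the regions formed 140 distinct positions in the genes, of 79766 in the genome. Present in both hairpin lists only were 48 (34.3%, against 30.1% of all positions), and 45 were present in hPSC only (32.1% against 40.1%). The positions of shLUC only numbered 24 (17.1% against 12.2%) and those of shHNRNPU only 7 (5.00% against 7.43%). The 9 positions in all 3 lists (6.43% against 4.75%) lay in RBFOX1, RBFOX2, CELF2, CELF4, NOVA1, MBNL1 and MBNL2. RBFOX3, with 28 positions, and KHDRBS2, with 8, had none.

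**Figure D3:**
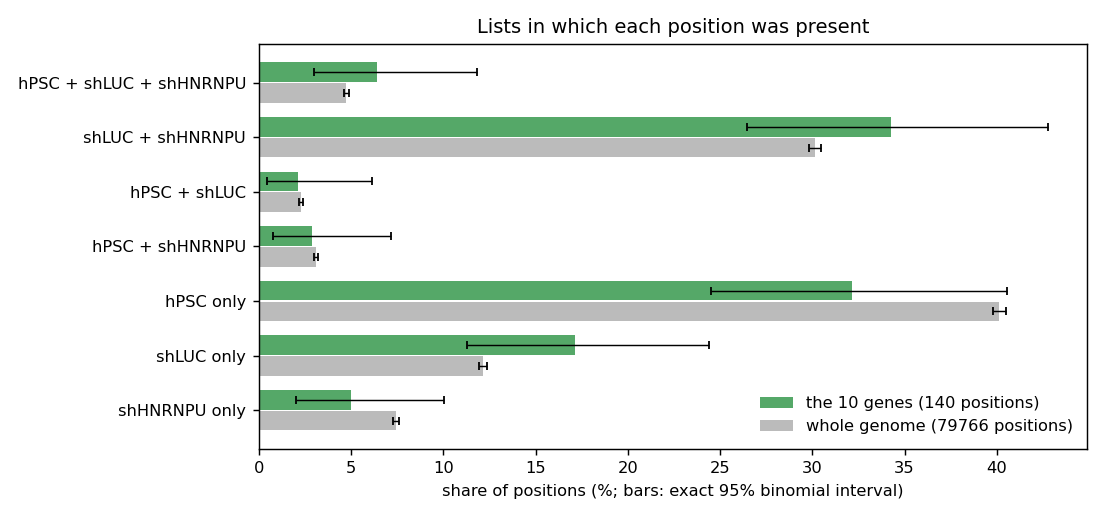
Share of distinct positions (percent, horizontal axis) present in each combination of the 3 lists, for the 140 positions in the 10 genes and the 79766 of the genome, with exact 95% binomial intervals for counting error. Positions of both hairpin lists only (34.3%) and of hPSC only (32.1%) were the most frequent in the genes, and every interval for the genes includes the genome value.

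Spacing varied between genes and, within a gene, between lists. The median gap between neighbouring regions within a gene was 63.6 kb in hPSC (52 gaps), 37.6 kb in shLUC (75) and 39.4 kb in shHNRNPU (60), against 36.1, 34.4 and 37.8 kb in genes of 100 kb and over. RBFOX1 had median gaps of 102, 53.0 and 60.5 kb, and its largest gaps were 255, 339 and 508 kb. In RBFOX3 the medians were 52.0, 15.5 and 24.4 kb, and in CELF4 23.5, 24.5 and 37.9 kb.

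Position along the gene was counted in 5 equal parts from the start for the 8 genes with a strand. In hPSC the first part held 17 of 59 regions (28.8%, interval 17.8% to 42.1%), close to the 29.2% of genes of 100 kb and over. In the hairpin lists it held 9 of 78 in shLUC (11.5%, 5.41% to 20.8%) and 9 of 62 in shHNRNPU (14.5%, 6.86% to 25.8%), below the 27.4% and 28.7% of those genes. Without RBFOX1 the shares were 32.4% (18.0% to 49.8%), 13.0% (5.37% to 24.9%) and 15.8% (6.02% to 31.3%), so that the shHNRNPU interval then included the 28.7%. In RBFOX1, the first part held 5, 2 and 3 regions in hPSC, shLUC and shHNRNPU, and the next part 4, 9 and 7. The shLUC share was uneven between genes. The first part held 0 of 19 regions in RBFOX3, 0 of 10 in CELF2 and 0 of 4 in MBNL2. It held 3 of 11 in CELF4, 1 of 4 in MBNL1, 1 of 2 in NOVA1 and 2 of 4 in KHDRBS2. The pooled intervals treat regions of the same gene as independent, so a low share is not shown for the genes as a set.

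The surroundings of the genes held alike numbers in the 3 lists. Over the 500 kb on each side of the 10 genes the pooled density was 12.3 regions per Mb in hPSC, 12.2 in shLUC and 12.3 in shHNRNPU, while within the genes it was 9.99, 13.8 and 11.1. The gene was less dense than its own surroundings in 6 of 10 genes in hPSC, 3 in shLUC and 5 in shHNRNPU. RBFOX1, with 14, 16 and 17 regions per Mb around it, was less dense than its surroundings in every list, and CELF4 was denser in every list. NOVA1, RBFOX3 and RBFOX2, with 20, 14 and 14 regions per Mb around the last, were less dense than their surroundings in hPSC and denser in both hairpin lists.

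**Figure D4:**
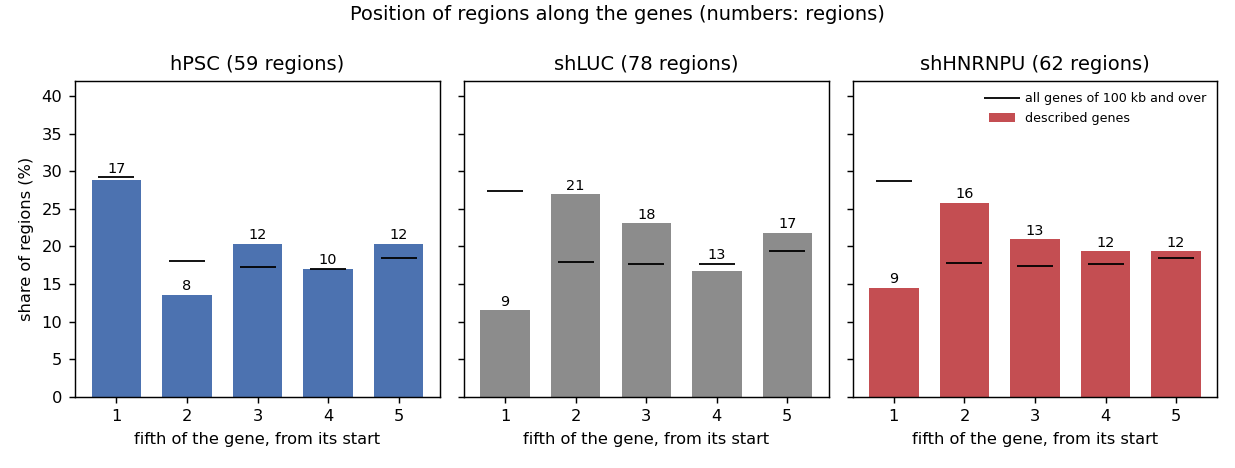
Share of regions (percent) in each of 5 equal parts of the gene from its start, for the 8 genes with a strand, with 1 panel for each list, the number of regions above each bar and the share over all protein-coding genes of 100 kb and over as a black line. The first part holds 28.8% in hPSC, 11.5% in shLUC and 14.5% in shHNRNPU.

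RefSeq start windows were found for 8 of the 10 genes, 37 windows in all, which include the alternative starts inside RBFOX1, CELF2 and RBFOX3. No window lay at the first base of the gene body in RBFOX1, RBFOX3, CELF4 and MBNL1. A region overlapped 6 of them in hPSC (16.2%, 6.19% to 32.0%), 7 in shLUC (18.9%, 7.96% to 35.2%) and 6 in shHNRNPU (16.2%). The shares over 22199 windows of 15843 protein-coding genes were 29.8%, 15.6% and 16.6%. By window, the higher hPSC share of the genome was not seen here, although its value lay inside the interval. RBFOX3 alone had 12 of the windows, none with a region. By gene, 5 of 8 (62.5%) had a window with a region in each list, against 36.4%, 19.4% and 20.6% of protein-coding genes. A gene with more windows is more easily counted in this way. In total 10 windows were covered in some list, namely 4 in CELF2, 2 in RBFOX1 and 1 each in CELF4, NOVA1, MBNL1 and KHDRBS2. Of the 9 positions present in all lists, 3 touched a start window (in RBFOX1, NOVA1 and MBNL1), a share of 33.3% (7.49% to 70.1%) against 34.7% of such positions in the genome. Of the 48 positions present in the hairpin lists only, 2 did (4.17%), against 4.47% in the genome.

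The covered windows were richer in G and C than the others. In the 10 covered windows of the genes the median AT content was 29.7%, from 19.0% in 2 CELF2 windows to 43.0% in MBNL1, and in the 27 others it was 48.3%. Over all windows the medians were 32.7% with a region and 42% without. The summed cut sites of the 6 restriction enzymes used to digest the nuclei were more frequent in covered windows, but the sites of each enzyme were not. The sites counted were CCGG (MspI), GGCC (HaeIII), GTAC (RsaI), AGCT (AluI), GGATCC (BamHI) and CAGCTG (PvuII), which read the same on both strands, and each PvuII site also holds an AluI site. Covered windows of the genes had a median of 9 sites and the others 5, against 8 and 6 over all windows. In the windows printed above the number of sites was 7 and 11 in RBFOX1, 3 in NOVA1, 10, 17 and 15 in CELF2 and 8 in KHDRBS2. Of all windows, 74.0% held an MspI site, 84.3% HaeIII, 28.0% RsaI, 73.6% AluI, 7.22% BamHI and 18.0% PvuII. In covered and other windows of the genes, MspI was in 100% and 63.0%, HaeIII in 90% and 66.7%, and BamHI in 10% and 3.70%. RsaI (10% and 40.7%), AluI (80% and 88.9%) and PvuII (20% and 33.3%) were less frequent in covered windows. Over all windows each enzyme differed in the same direction. The part of base composition and of cut sites in where regions were found was not tested.

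Other splicing regulators were described for comparison from a list of 43 genes, including the SRSF, ELAVL, PTBP, MSI and ESRP families. They held 72 regions in hPSC, 72 in shLUC and 69 in shHNRNPU, in 30, 31 and 27 genes, and 6 genes had none in any list. Per Mb this was 24.4, 24.4 and 23.4, beside 9.99, 13.8 and 11.1 in the 10 genes. The median gene length was 34.2 kb, against 307 kb for the 10. MSI2, an RNA-binding protein of stem cells, held 16, 14 and 13 regions. RBM47 held 6, 4 and 5, and QKI, a regulator of splicing and of myelination, held 3, 5 and 6. From shLUC to shHNRNPU 8 of the 43 had fewer regions, 29 as many and 6 more, and 0 of the 2 with enough regions to be judged were called in either direction. From shLUC to hPSC 17 had fewer, 11 as many and 15 more, and 1 of 2 was called, as higher in hPSC.

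A few regions could belong to another transcript. Of the regions in the genes, 6 of 61 in hPSC, 5 of 84 in shLUC and 4 of 68 in shHNRNPU also overlapped another gene of the table, such as MBNL1-AS1 in MBNL1 and LINC01570 in RBFOX1.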

How the data were processed

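The authors deposited 1 region list for each group, with chromosome, start and end; the deposited score column held 0 throughout and was not used. The submitters' processing notes name cutadapt, Bowtie2, SAMtools, MACS2, deepTools and hg38; their roles, versions, the calling threshold, any use of the input sample and any pooling of the 2 samples are not given in the sources used here, and read depth is unknown. Called regions depend on depth and threshold, so a position missing from a list may have been below its threshold. Coordinates were counted from 1.

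Genes were taken from the GRCh38.p14 RefSeq gene table, and a region counted where it overlapped a gene body by at least 1 bp. Density is regions per Mb. Strand and start windows came from the RefSeq promoter table. Exons were not analysed here. Intervals are exact (Clopper-Pearson for shares and ratios, Poisson for densities). Intervals that compare the counts of a pair of lists treat them as independent, although the lists share regions. The 10 genes and the comparison lists were chosen with earlier results of these data known. All 10 were named, and other splicing regulators were named where a list held at least 5 regions. Code was tested on simulated data. Scripts ran in Python 3.11.15 with matplotlib 3.10.9, scipy 1.17.1, pandas 2.3.3 and numpy 2.4.6. Alternatives were the region centre, 5 kb added to genes, merging within 1 kb, 50% overlap, other thresholds, list length and leaving out RBFOX1.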

Additional observations from a re-analysis of the deposited data

How the results depend on the processing

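No paired analysis was possible because the deposited lists carry no replicate numbers, and no replicate could be left out. The counts for the 10 genes were 59, 83 and 67 in hPSC, shLUC and shHNRNPU by region centre, 64, 87 and 69 with 5 kb added on both sides, and 61, 84 and 68 after merging within 1 kb. Of 101 values recomputed, 100 stayed within 1.5 times (counts, gaps) or within the counting interval (ratios, shares). Within that interval some single-gene log2 ratios gained or lost a direction: division by list length turned shHNRNPU against shLUC from 0 to 0.12 in RBFOX1, RBFOX2, NOVA1 and MBNL1, and hPSC against shLUC went from -0.15 to 0 in CELF2 with 5 kb added and in KHDRBS2 from 0 to -0.42 by region centre and to -0.03 by list length. The exception was the number of genes called in hPSC against shLUC, which was 1 as reported and 3 (RBFOX2, RBFOX3 and MBNL1, all lower in hPSC) with at least 5 regions in both lists together, where 35.0% of all genes judged were lower. Without RBFOX1 the pooled log2 ratios were -0.45 for shHNRNPU and -0.62 for hPSC against shLUC. Counts of 0 to 5 regions limit most single genes, and the depth behind the lists is unknown.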
